A study of Arabidopsis thaliana with 17 samples.

Results

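Pericentromeric open sites are the places in the gene-poor regions around the 5 Arabidopsis thaliana centromeres where nuclear DNA was accessible to DNase I. They were chosen by position alone, in windows that were set with earlier results of these data known. Peaks of the 11 lists that carry the mark 6.8M were merged into sites wherever they overlapped, which gave 49442 sites on the 5 nuclear chromosomes. A site was pericentromeric when its centre lay in 11.5 to 17.7 Mb of chromosome 1, 1.1 to 7.2 Mb of chromosome 2, 10.3 to 17.3 Mb of chromosome 3, 1.5 to 6.3 Mb of chromosome 4 or 9 to 16 Mb of chromosome 5 (TAIR10). The stretch from 3.2 to 3.55 Mb of chromosome 2 was left out. This rule gave 4413 sites in 30.75 Mb, against 44942 sites in 88.0 Mb of chromosome arms, and 87 sites fell in the left-out stretch. In 84 of those 87 sites, 50% or more of the 31-base words also occur in the chloroplast or mitochondrial sequence, which was so for 1 pericentromeric site and 2 arm sites.

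DNase I-seq maps open chromatin by sequencing the short fragments that the enzyme releases from nuclei. All plants were Col-0 and carried NTF, a tag on the nuclear envelope that is biotinylated by the bacterial ligase birA under ACT2, so that tagged nuclei could be captured on beads. Seed coat nuclei came from whole siliques of the line GL2:NTF::ACT2:birA, 4 or 7 days past anthesis (DPA). Hair cell nuclei came from roots of 7-day ADF8:NTF::ACT2:birA seedlings. Non-hair cell nuclei came from roots of GL2:NTF::ACT2:birA seedlings, 10 days old in replicates 1, 3 and 4 and 7 days old in replicate 2. Whole root nuclei (7 days) and the nuclei of open and unopened flowers came from UBQ10:NTF::ACT2:birA plants. Seed coat and non-hair nuclei therefore share a driver and differ in the organ, while hair and non-hair nuclei differ in the driver as well as the cell type, and also in age in 3 of the 4 non-hair lists. These factors cannot be told apart.

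The 11 lists were 3 of seed coat (4 DPA replicate 1, a 4 DPA pool and a 7 DPA pool), 2 of hair cells (replicate 1 and a pool), 4 of non-hair cells and 2 of whole root. Each pool joins the reads of 2 libraries. The lists held 24751 to 30110 nuclear peaks, each 150 bp wide, with a score set by the authors and no read counts. The mark 6.8M was taken to mean that each list rests on the same number of reads, which no label states, and the depth of a single peak is not known. Scores were used only to order the peaks of a list, as a rank percentile in which 100 is the highest score. The labels do not say which libraries came from separate plants, so the tests measure the spread between lists, which may be technical. The full-depth lists of seed coat 4 DPA replicates 1 and 2 hold identical values and were counted as 1.

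In flowering plants the DNA around a centromere is packed as heterochromatin, rich in transposons and pseudogenes and poor in genes. The Arabidopsis centromere itself is built of long head-to-tail arrays of a short satellite repeat, and a reference genome holds only part of these arrays. Ribosomal RNA genes are a further class of repeated DNA, found mostly in large arrays elsewhere in the genome. Genes do occur inside the pericentromeric windows, and their promoters can be open as they are in the arms.

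The sequences that lead the pericentromeric sites are shown from the TAIR10.1 RefSeq reference, which keeps the nuclear chromosomes of TAIR10, on its plus strand. Capitals mark bases that lie in a 31-base word found at more than 1 place in the genome. First come the 2 sites with the highest mean rank in the 11 lists.
chr3:13591961-13592110: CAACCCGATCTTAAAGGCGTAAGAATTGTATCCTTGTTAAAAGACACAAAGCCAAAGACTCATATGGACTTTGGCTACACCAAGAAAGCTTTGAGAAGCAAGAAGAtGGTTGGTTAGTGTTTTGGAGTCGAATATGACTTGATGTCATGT
chr4:4005901-4006070: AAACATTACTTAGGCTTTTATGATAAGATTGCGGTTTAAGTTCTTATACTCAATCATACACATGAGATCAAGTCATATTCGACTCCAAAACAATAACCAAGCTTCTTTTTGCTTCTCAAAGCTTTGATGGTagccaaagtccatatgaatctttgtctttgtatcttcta
Next are the 2 sites found in all 11 lists that lie farthest from any protein-coding start, at 118878 bp and 113362 bp.
chr5:11755421-11755610: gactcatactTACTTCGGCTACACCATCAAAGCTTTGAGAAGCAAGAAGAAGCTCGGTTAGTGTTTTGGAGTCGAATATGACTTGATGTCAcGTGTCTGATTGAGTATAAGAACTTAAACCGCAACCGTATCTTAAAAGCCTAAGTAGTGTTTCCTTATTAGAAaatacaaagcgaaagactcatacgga
chr5:11963261-11963450: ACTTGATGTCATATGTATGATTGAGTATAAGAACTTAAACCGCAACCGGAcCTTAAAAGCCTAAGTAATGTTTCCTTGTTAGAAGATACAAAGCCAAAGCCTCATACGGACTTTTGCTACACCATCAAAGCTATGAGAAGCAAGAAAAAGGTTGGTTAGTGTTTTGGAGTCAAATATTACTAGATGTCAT
All 4 are variants of 1 tandem repeat with a unit of 178 bp, and 77.1% to 99.5% of their bases are capitals. The following sites, from sequence that occurs nowhere else, show the contrast. Capitals here mark a W-box on either strand, the motif searched for in the later comparison of groups. Among pericentromeric sites found in every root list and no seed coat list, that near AT3G46280, a kinase-like gene, had the highest mean rank. The site upstream of TT8, a regulator of seed coat pigment, was found in seed coat lists, with a mean rank of 45.2, and was not a leading site.
chr3:17009141-17009290: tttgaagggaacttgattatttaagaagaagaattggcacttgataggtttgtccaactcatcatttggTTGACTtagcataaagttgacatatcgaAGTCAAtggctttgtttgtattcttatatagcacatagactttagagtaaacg
chr4:6181081-6181270: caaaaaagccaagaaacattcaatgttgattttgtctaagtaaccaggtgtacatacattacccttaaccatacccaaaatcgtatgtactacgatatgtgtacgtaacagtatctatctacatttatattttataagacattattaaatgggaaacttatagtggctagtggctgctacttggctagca

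Open sites were rarer per Mb in the windows than in the arms, and this held in each of the 11 lists. There were 143.5 sites per Mb in the windows and 510.4 per Mb in the arms. Single lists had 66.2 to 79.8 peaks per Mb in the windows and 256.7 to 313.3 per Mb in the arms, with no overlap. The log2 ratio of windows to arms was -1.97, -2.01 and -1.90 in the seed coat lists and -1.88 and -1.88 in the hair lists. It was -2.06, -1.96, -1.99 and -1.94 in the non-hair lists and -2.01 and -1.94 in whole root. The mean was -1.96 ± 0.06 (SD, n = 11 lists), and an exact two-sided sign-flip permutation test gave p = 0.000977, the smallest that 2048 sign flips allow. The lists share libraries of the same tissues, so this p speaks of the lists and not of independent plants. The windows were chosen with earlier results of these data known, which limits this and the later tests of windows against arms.

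Genes and mappable sequence were also sparser in the windows. Protein-coding starts numbered 106.9 per Mb in the windows and 273.3 per Mb in the arms, while pseudogenes ran the other way with 121.1 and 12.1 per Mb. Only 76.4% of 31-base words in the windows occur at a single place in the genome, against 96.3% in the arms. Per Mb of such single-copy sequence there were 188 sites in the windows and 530 in the arms. With repeated peaks set aside and single-copy length as the base, the mean log2 ratio was -1.67 (p = 0.000977, same exact permutation test). Per protein-coding start there were 1.34 sites in the windows and 1.87 in the arms.

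The density fell in steps toward the middle of the windows. From the innermost Mb outward, 3 to 4 Mb inside the window edge, the windows held 40.1, 54.2, 115.5 and 270.8 sites per Mb. The first Mb outside held 450.2 sites per Mb, and sequence more than 5 Mb outside held 556.8. Protein-coding starts followed the same order, with 24.4, 41.4, 98.4 and 189.8 per Mb inside, 243.6 in the first Mb outside and 285.4 beyond 5 Mb. The ratio of sites to starts did not follow it, since it was 1.64, 1.31, 1.17 and 1.43 inside, 1.85 in the first Mb outside and 1.95 beyond 5 Mb. The innermost bin holds 92 sites in 2.3 Mb, 31 of them repeated sequence.

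**Figure D1:**
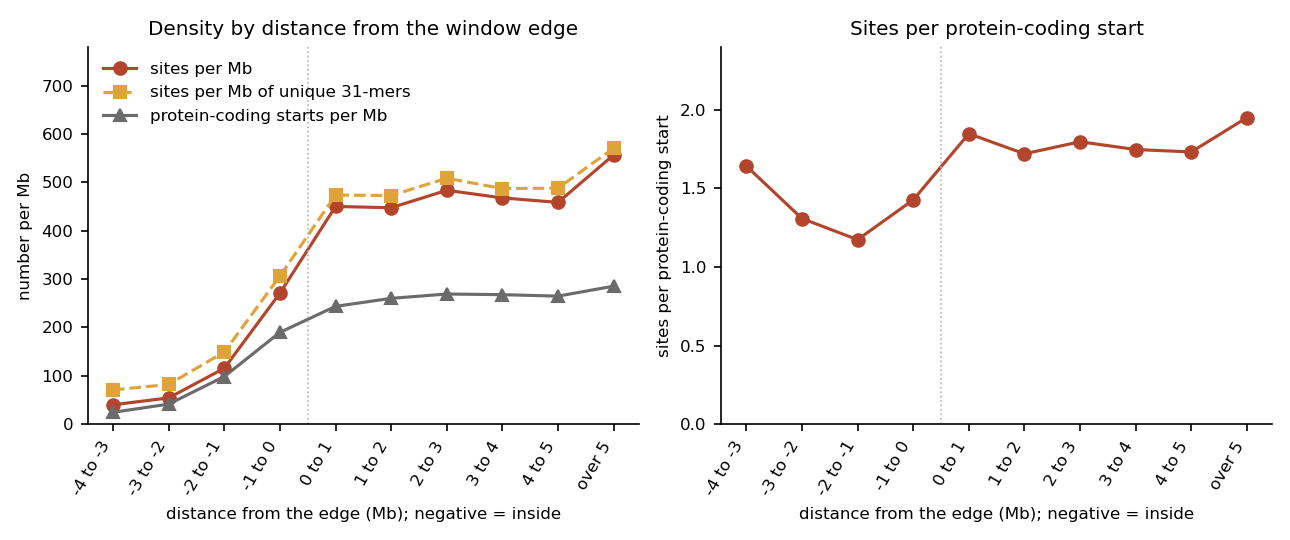
The left panel plots sites per Mb, sites per Mb of single-copy 31-base words and protein-coding starts per Mb against distance from the window edge, with negative distances inside the windows and the dotted line at the edge. The right panel plots sites per protein-coding start over the same bins, lowest at 1.17 in the bin 1 to 2 Mb inside the edge.

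The chromosomes differed in how sparse their windows were. Windows of chromosomes 1, 3 and 5 held 154.8, 156.3 and 163 sites per Mb, and those of chromosomes 2 and 4 held 111.8 and 119.8. The arms were even, at 503.8 to 518.7 sites per Mb on the 5 chromosomes. The median rank of pericentromeric sites was 27.2, 25.9, 27.8, 30.1 and 27.3 on chromosomes 1 to 5, below the arm median of 38.0 to 39.4 on each.

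Fewer pericentromeric genes had an open promoter region. A site of any list lay within 1 kb of the start for 1804 of 3288 pericentromeric protein-coding genes, which is 54.9%, against 82.7% of 24059 arm genes. In single lists the share was 32.8% to 40.8% in the windows and 58.3% to 69.99% in the arms. A site of all 11 lists lay within 1 kb for 16.8% of pericentromeric genes and 34.8% of arm genes.

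Pericentromeric sites lay farther from genes, but most were still near one. The median distance from site centre to the nearest protein-coding start was 925.5 bp in the windows and 643.5 bp in the arms. A start lay within 1 kb of 51.8% of pericentromeric and 61.8% of arm sites. More than 10 kb separated 218 pericentromeric sites (4.94%) from any start, and 7 arm sites (0.0156%). By annotation, 24.5% of pericentromeric and 29.0% of arm sites fell within 400 bp upstream of a start, 11.3% and 11.7% in a 5′ UTR, and 49.1% and 42.8% between genes. Pseudogenes held 1.34% of pericentromeric and 0.26% of arm sites under the same classes. Mean GC content was 33.8 ± 5.08% in the windows and 34.1 ± 4.90% in the arms (SD over sites).

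Repeated sequence set the pericentromeric sites apart more than base composition did. A site was called repeated when fewer than 50% of its 31-base words were single-copy. That applied to 137 pericentromeric sites (3.10%) and 36 arm sites (0.0801%). Of the sites more than 10 kb from a start, 93 of 218 were repeated, against 44 of the 4195 pericentromeric sites nearer to a start.

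The typical pericentromeric peak scored low, although a few were the highest of the genome. The median rank of pericentromeric peaks was 39.4, 35.8 and 41.6 in the seed coat lists, 41.2 and 41.3 in the hair lists, 40.7, 40.9, 41.2 and 41.2 in the non-hair lists and 36.9 and 37.3 in whole root. Arm peaks had medians of 50.4 to 51.4, so the medians of the 2 regions did not overlap, although the ranks of single peaks did. The difference averaged -11.2 ± 2.21 percentile points (SD, n = 11 lists) and was negative in 11 of 11 lists (exact two-sided sign-flip permutation test, p = 0.000977, the smallest possible). Without repeated peaks, those with fewer than 50% single-copy words, it was -12.3 (same exact permutation test, p = 0.000977). Of 5 such tests, including those on density and on sharing, each kept an adjusted p of 0.000977 under Benjamini-Hochberg. Repeated pericentromeric peaks had a median rank of 51.4 to 90.7 in the 11 lists, against 35.1 to 40.1 for the other pericentromeric peaks. Their median lay above that of arm peaks in each list but the seed coat 4 DPA pool, where both were 51.4.

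**Figure D2:**
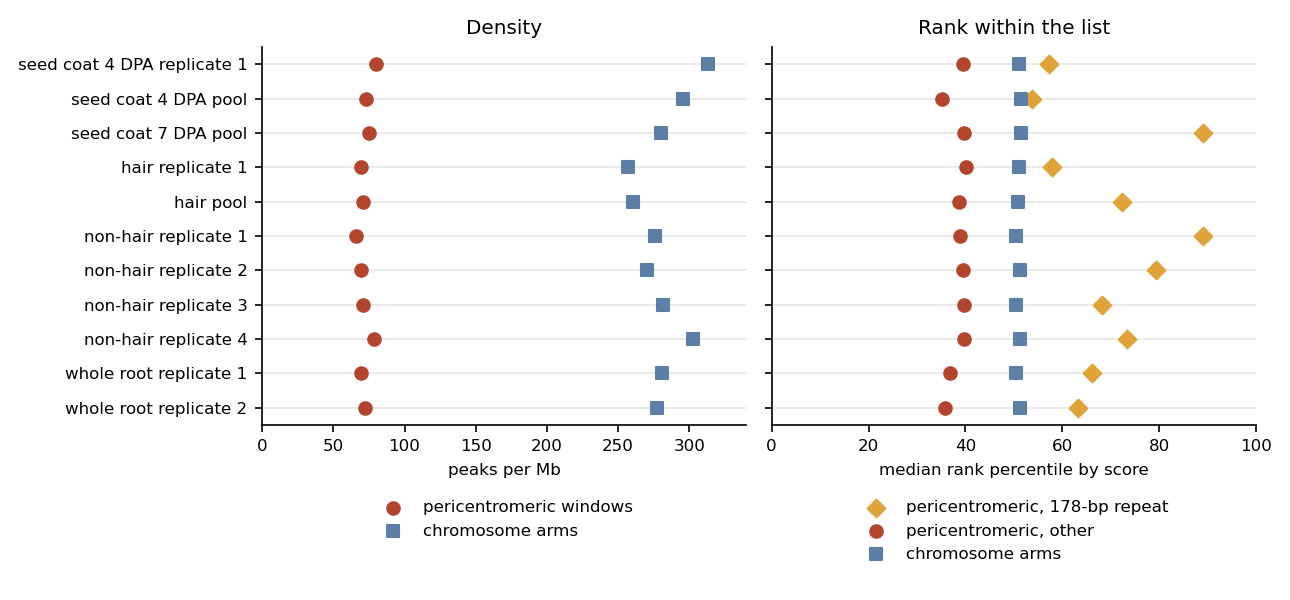
Each row is 1 of the 11 lists; the left panel plots peaks per Mb in the pericentromeric windows and the arms, and the right panel plots the median rank percentile of pericentromeric peaks in the 178-bp repeat, of the other pericentromeric peaks and of arm peaks. In every list the repeat peaks lie above the arms in rank, from 53.8 to 89.2, and the other pericentromeric peaks lie below, from 35.1 to 40.0.

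At the very top of the lists the order was reversed. Of the 10 highest-scoring peaks of each list, 4, 4 and 6 were pericentromeric in the seed coat lists, 5 and 7 in the hair lists, 7, 9, 7 and 7 in the non-hair lists and 7 and 6 in whole root. That is 69 of 110 peaks, while all pericentromeric peaks made up 7.72% to 8.68% of a list. Among the top 100 peaks the share was 14% to 42%, among the top 1000 it was 5.7% to 11.6%, and among the top 5000 it was 4.56% to 6.84%. The share lay above that of the whole list among the top 100 peaks of each of the 11 lists, and below it among the top 5000 of each. Among the 69, 56 lay in the 178-bp tandem repeat, 10 lay around the rRNA genes of chromosome 3, and 3 were 1 further site.

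**Figure D3:**
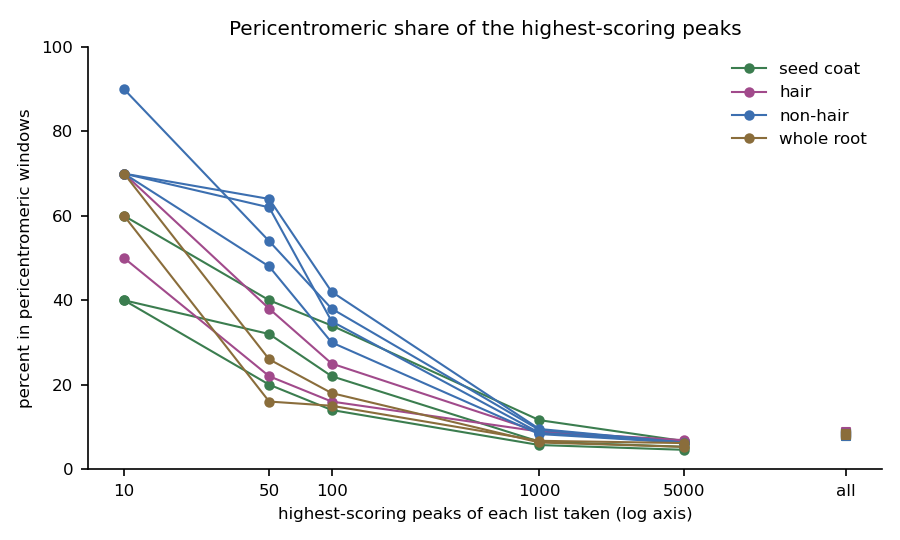
The percent of the highest-scoring peaks that lie in pericentromeric windows is plotted for the top 10, 50, 100, 1000 and 5000 peaks of each of the 11 lists (log axis), with squares at the right for all peaks. Lines start at 40% to 90% and reach 4.56% to 6.84% at 5000 peaks.

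The site at chr3:13591961-13592110 ranked first in 10 of the 11 lists and second in whole root replicate 2. Its score was 1221, 978 and 3709 in the seed coat lists, 1726 and 1921 in the hair lists, 3228, 2176, 1659 and 1684 in the non-hair lists and 1092 and 1290 in whole root. It lies 61937.5 bp from the nearest annotated protein-coding start, that of AT3G32980, a peroxidase gene. The site at chr4:4005901-4006070 followed, with scores of 877, 608 and 2871 in seed coat, 1206 and 1439 in hair cells, 2103, 1591, 1308 and 1269 in non-hair cells and 921 and 1014 in whole root. Both sites were also the leading pericentromeric peaks of the flower lists, which are a different kind of list: chr3:13591961-13592110 had the highest score of all peaks in open and in unopened flowers.

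The 10 sites of all 11 lists with the highest mean rank were of just 2 kinds. Of the 10, 6 lay in the 178-bp repeat on chromosomes 2, 3 and 4, and the other 4 lay at the rRNA genes of chromosome 3. The shift of 178 bp was read from the leading site, where it gave the best match of the surrounding sequence to itself, 78.7%. Sites were then called repeat sites when the 2 kb around them matched itself at that shift in 45% or more of positions, a definition made after the values were seen, so the repeat sites are described without a test. It gave 158 pericentromeric sites and 0 arm sites. The last site inside the limit matched at 45.9% and the first outside at 43.5%, while the median of the other 4255 pericentromeric sites was 29.4%. The length matches that of the Arabidopsis centromeric satellite.

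The repeat sites resembled one another closely. Compared with the 178 bases centred on the leading site, in any rotation and on either strand, they had a median identity of 89.0%, against 36.5% for the other pericentromeric sites, and 131 of 158 had 80% or more. They did not share a position within the unit: when those 131 were sorted by where their centre fell, each ninth of the unit held 7 to 21 sites. The strand of the leading site was used by 87 and the other strand by 71. Chromosomes 1 to 5 held 11, 31, 12, 38 and 66 of them. In the reference, sequence that passes the same limit covers only 0.349 Mb of the windows, so there were 453 sites per Mb of repeat. On chromosomes 1 to 5 the value was 647, 1033, 1000, 328 and 379 sites per Mb. Reads from any copy of such a repeat can be placed at a few reference positions, and how the aligner was set for reads with several matches is not given in the sources used here. The number of copies behind a score is therefore unknown, and its part in the high scores was not tested.

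Repeat sites were in all 11 lists, and also in 1 list only, in higher shares than the other pericentromeric sites. All 11 lists held 47 of 158 (29.7%), against 17.6% of the other pericentromeric sites. Only 1 list held 42 (26.6%), against 21.0% of the others. None was seed coat-only or root-only in the sense used later, and 2 were hair-only. The lists held 72, 74 and 157 repeat peaks in seed coat, 89 and 99 in hair cells, 109, 89, 89 and 91 in non-hair cells and 68 and 76 in whole root. The seed coat 7 DPA pool thus stood apart with 157 peaks, and the next list, non-hair replicate 1, had 109. Their median rank was 57.2, 53.8 and 89.2 in seed coat, 57.8 and 72.2 in hair cells, 89.1, 79.4, 68.2 and 73.4 in non-hair cells and 66.2 and 63.3 in whole root.

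The rRNA genes AT3G41768 and AT3G41979 at 14197677 to 14199916 of chromosome 3 formed the second group. They encode ribosomal RNA, and most copies of these genes in Arabidopsis lie in arrays at chromosome ends. Within 5 kb of the pair lay 14 sites, of which 11 were in all lists, with mean ranks from 50.1 to 99.9 and a median of 99.3. Their GC content was 35.9% to 70%, with a median of 51.3%, well above the pericentromeric mean of 33.8%. The site chr3:14201501-14201750 was among the 10 highest-scoring peaks of 6 lists. Copies of this sequence elsewhere cannot be told apart from this locus by short reads, so the values may include them.

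A site of largely single-copy sequence among the top peaks differed between lists. At chr2:5852581-5852770, 4860.5 bp from the start of AT2G13950, 93.1% of 31-base words are single-copy. It had the highest score of whole root replicate 2, 1681, a score of 323 in whole root replicate 1 and of 1245 in the hair pool. It had no peak in the other 8 lists, and the nearest non-hair and seed coat peaks were 491 bp and 6611 bp away. Hair replicate 1 had none either, so the difference lies between lists of the same group.

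Among sites whose every 31-base word is single-copy, the leaders lay near genes of varied roles, most of them within 400 bp upstream of a start. This order was made after the repeats were seen and is a description. RPS15AD, a protein of the small ribosomal subunit, led with ranks of 98.5, 99.2 and 98.7 in seed coat, 99.9 and 99.9 in hair cells, 97.4, 99.4, 99.3 and 98.3 in non-hair cells and 99.9 and 99.9 in whole root. ALN, the allantoinase of purine breakdown, had 96.9 or more in all lists but whole root replicate 1, where it had 95.9. STOP1, a zinc finger factor needed for tolerance of acid and aluminium, ranged from 89.5 in whole root replicate 2 to 99.7 in seed coat 4 DPA replicate 1. The others were sites at RD21A (a cysteine protease), XTH30 (a cell wall xyloglucan enzyme), AT5G27920 (an F-box protein), AFP3 with 2 sites (a partner of the abscisic acid factor ABI5), ANR1 (a MADS-box factor of nitrate-dependent root growth) and ALDH3H1 (an aldehyde dehydrogenase), with mean ranks of 95.1 to 98.2. None of these 10 sites was among the 10 highest-scoring peaks of any list.

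**Figure D4:**
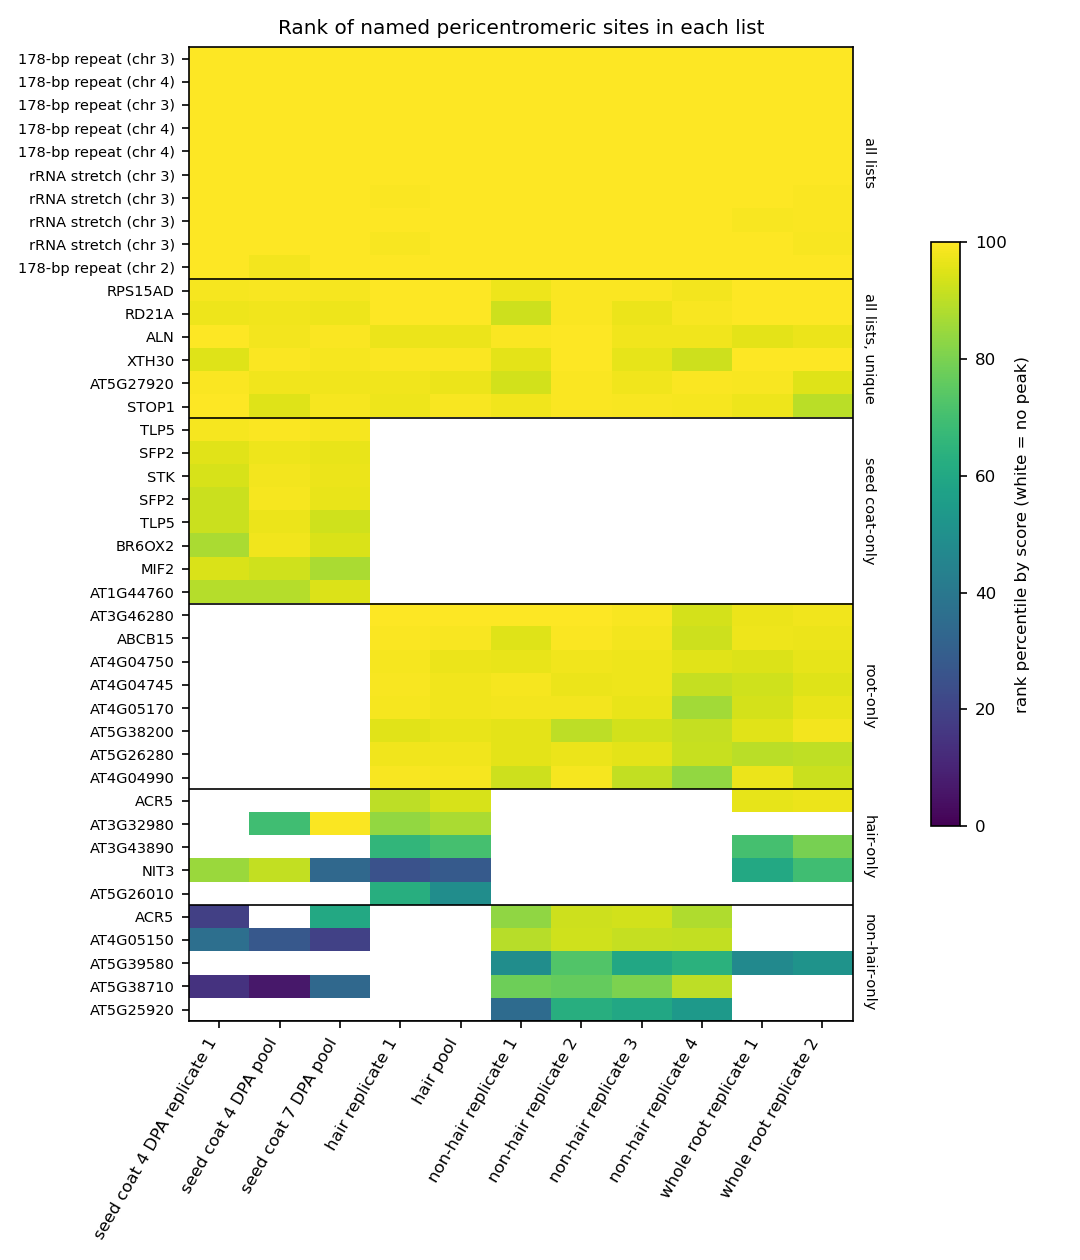
Rows are named pericentromeric sites, columns are the 11 lists, and colour gives the rank percentile by score, with white where the list has no peak. Repeat and rRNA sites of the top block are near 100 in every column, single-copy leaders at genes are high in every column, and the group-only blocks are white in the opposite group by definition.

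Pericentromeric sites were shared by fewer lists than arm sites. All 11 lists held 794 of 4413 pericentromeric sites (18.0%) and 9888 of 44942 arm sites (22.0%), and 934 (21.2%) and 7993 (17.8%) were in 1 list. Taken list by list, 32.6% to 39.6% of a list's pericentromeric sites and 36.3% to 44.3% of its arm sites were in all 11. The difference averaged -4.40 ± 1.67 percentage points (SD, n = 11 lists), negative in 11 of 11 (exact two-sided sign-flip permutation test, p = 0.000977, the smallest possible). The lists share these sites, so their differences are not independent. Pericentromeric sites in all lists had a median rank of 55.9, against 65.1 for such arm sites. By annotation, the share of sites in all 11 lists ran both ways. It was lower in the windows upstream of a start (26.9% against 34.6%), between genes (12.65% against 16.8%) and in 3′ UTRs (14.1% against 14.3%). It was higher in 5′ UTRs (26.7% against 24.5%), coding exons (17.1% against 10.1%), introns (11.6% against 9.56%) and pseudogenes (20.3% against 6.84%). The coding exon and intron sites of the windows include sites of the 178-bp repeat at the annotated genes AT1G40104, AT2G07981 and AT2G08986. Several of these were in all 11 lists, and the shares without them were not computed.

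**Figure D5:**
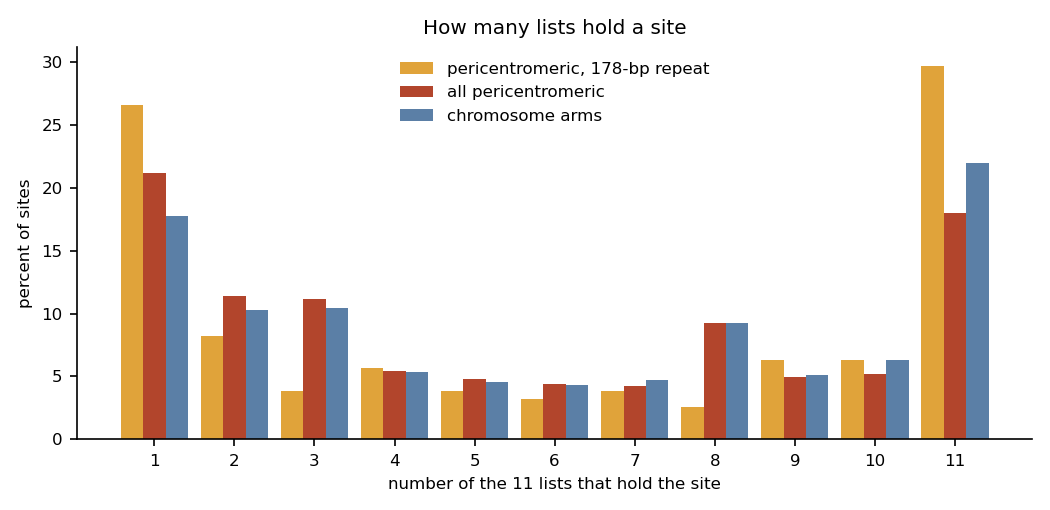
Bars give the percent of sites held by 1 to 11 of the lists, for pericentromeric sites in the 178-bp repeat, all pericentromeric sites and arm sites. Sites in all 11 lists make up 29.7%, 18.0% and 22.0%.

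Agreement between lists was lower in the windows at every level of kinship. The mean Jaccard index, the sites 2 lists share as a part of those either holds, was 0.713 in the windows and 0.746 in the arms for lists of the same group. It was 0.697 and 0.725 between hair and non-hair lists, and 0.416 and 0.468 between seed coat and root lists. Among pericentromeric sites that are not repeated the values were 0.711, 0.696 and 0.409.

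The share of peaks that were pericentromeric did not separate seed coat from root. It was 8.15%, 7.94% and 8.55% in the seed coat lists, and 7.72% to 8.68% with a median of 8.28% in the 8 root lists. The means differed by -0.0365 percentage points, seed coat minus root (exact two-sided permutation test, p = 0.885, where the smallest possible is 0.00606; adjusted p = 0.915 over 8 comparisons between groups). The sign turned without seed coat 4 DPA pool (0.0992), without hair replicate 1 (0.0209) and without the hair pool (0.0258).

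Individual pericentromeric sites did separate the tissues, about as often as sites elsewhere. Sites present throughout the 3 seed coat lists and absent from the 8 root lists are called seed coat-only, and the converse root-only. Over all 49442 sites 6.01% were seed coat-only, and 287 pericentromeric sites (6.50%) and 2678 arm sites (5.96%) were. Root-only sites made up 6.15% of all sites, with 289 in the windows (6.55%) and 2752 in the arms (6.12%). Both shares in the windows were thus near those of all sites. These are also the sites called by Fisher's exact test at each site (p = 0.00606, adjusted p = 0.0499 by Benjamini-Hochberg over 49442 sites). That call rests on all 11 lists, since leaving out any 1 of them left 0 sites called; at an unadjusted p under 0.05 there were 738 pericentromeric sites (16.7%), near the 16.1% of all sites. Without the 7 DPA pool 437 pericentromeric sites were seed coat-only. The nearest peak of the opposite group lay within 100 bp of 14 of the 287 seed coat-only sites and 11 of the 289 root-only sites.

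The leading seed coat-only sites lay nearest to TLP5, SFP2, STK, BR6OX2, MIF2 and AT1G44760. The highest, at chr1:16443341-16443570, lies 1514.5 bp from the start of TLP5, a tubby-like protein, and ranked 98.7, 99.5 and 98.8 in the 3 seed coat lists. TLP5 had a further such site at its promoter with ranks of 91.8, 97.2 and 92.8. SFP2, a sugar transporter of the major facilitator family, had 2, the higher at 95.6, 97.3 and 96.8. STK, the MADS-box factor of ovule identity that also acts in the seed coat, had a site 1364.5 bp from its start with ranks of 94.0, 98.2 and 97.1. Sites nearest BR6OX2 (a brassinosteroid C-6 oxidase), MIF2 (a mini zinc finger protein) and AT1G44760 completed the 8, with ranks of 87.4 to 97.7. The nearest root peak was 51 bp from the lower SFP2 site and from the BR6OX2 site, and 171 bp to 2831 bp from the other 6. In the flower lists, peaks touched the 2 SFP2 sites and the AT1G44760 site in both, the BR6OX2 site in unopened flowers only, and the TLP5, STK and MIF2 sites in neither.

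The leading root-only sites lay nearest to genes of varied kinds. The site chr3:17009141-17009290, 687.5 bp from AT3G46280, ranked 99.9 and 99.7 in the hair lists, 99.8, 99.9, 98.9 and 93.6 in the non-hair lists and 96.9 and 97.7 in whole root. The nearest seed coat peak was 2651 bp away. A site 3493.5 bp from ABCB15, an ABC transporter, ranked 99.5 and 98.9 in hair cells, 95, 99.4, 98.1 and 92.5 in non-hair cells and 97.4 and 97.2 in whole root. AT4G04750, a transporter of the major facilitator family, and its neighbour AT4G04745 each had one, and AT4G05170 (a bHLH protein), AT5G38200, AT5G26280 and AT4G04990 followed, with mean ranks of 94.0 to 96.7. At AT5G38200 the nearest seed coat peak was 11 bp away. Of these 8 sites, the flower lists held only that of AT5G38200, in open flowers.

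The W-box, the core bound by WRKY factors, was present in a lower share of seed coat-only than of root-only sites. The 150 bases around the centre of each site were searched on both strands for TTGACC or TTGACT (W-box), CACGTG (G-box), TGGGCC or TGGGCT (site II element) and AACCCTA (telo-box core). Among pericentromeric sites a W-box was found in 9.06% of those confined to seed coat, 46.7% of those confined to root and 24.2% of the whole set, against 12.5%, 42.0% and 23.1% in the arms and 23.2% of sites genome-wide. A site II element was found in 34.6% of pericentromeric sites of all 11 lists, in 17.4% of those confined to seed coat and in 3.46% of those confined to root, against 40.8%, 8.29% and 3.78% in the arms and 18.9% of all sites. A G-box was in 12.2% of pericentromeric and 12.3% of arm sites of all lists. The telo-box core was in 3.15% of all pericentromeric and 2.55% of all arm sites. A match describes the letters in the window and says nothing of binding. The printed AT3G46280 sequence holds a W-box on each strand, and the printed TT8 sequence has none of the 4 motifs. None is found either in the next root-only leader, at ABCB15, or in the leading seed coat-only sites at TLP5 and SFP2, which are not printed. The 2 printed sequences therefore do not stand for their groups.

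In the root epidermis, hair-only sites outnumbered non-hair-only sites in the windows while the arms had the opposite order. Over the 36188 sites found in any of these 6 lists, 0.779% were hair-only, meaning that each hair list and not one non-hair list held them, and 1.77% were non-hair-only, the converse. In the windows 45 sites were hair-only (1.44%) and 29 non-hair-only (0.931%), and in the arms 237 (0.718%) and 611 (1.85%). This order in the windows and its opposite in the arms was kept when any 1 of the 6 lists was left out, with the closest counts in the windows, 56 and 55, without non-hair replicate 1. It was kept with the 10-day non-hair lists alone, with 72 hair-only and 57 non-hair-only sites in the windows. With the 7-day non-hair list alone, which matches the hair lists in age, it was not: 154 sites in the windows were hair-only and 172 non-hair-only. That setting also leaves 1 non-hair list in place of 4, which loosens both definitions, so age and number of lists cannot be told apart. With 2 hair and 4 non-hair lists the 2 definitions are also not equally strict. No test of a single site can reach the threshold with 2 and 4 lists. Many of these sites scored low. The median of their mean ranks in the windows was 13.5 for hair-only and 24.8 for non-hair-only sites, against 26.3 and 31.8 in the arms. The share of peaks in the windows was 8.65% and 8.68% in hair lists and 7.72%, 8.23%, 8.05% and 8.33% in non-hair lists, which do not overlap, a comparison made after the values were seen. The means differed by 0.585 percentage points (exact two-sided permutation test, p = 0.133, where 15 labellings allow no less than 0.0667; adjusted p = 0.356).

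The leading hair-only site lay beside a leading non-hair-only site. At chr2:1137101-1137270, near ACR5, a gene for an ACT-domain protein, hair lists had ranks of 89.9 and 94.1, whole root had 96.4 and 97.0, and the 4 non-hair lists had no peak. At chr2:1137301-1137510, the non-hair lists had ranks of 83.3, 92.3, 93.3 and 88.1, seed coat 4 DPA replicate 1 and the 7 DPA pool had 19.0 and 60.3, and hair cells and whole root had no peak. The 2 sites did not overlap and were 31 bp apart. Gaps of 31 bp at AT4G05150 and 11 bp at NIT3, a nitrilase gene, were alike, and the nearest peak of the other cell type lay within 100 bp for 5 of 45 hair-only and 4 of 29 non-hair-only sites. Hair-only sites at AT3G43890, with ranks of 65.9 and 70.6 in hair cells, and at AT5G26010, with 62.7 and 48.9, had gaps of 191 bp and 2711 bp. The non-hair-only site at AT5G39580, a peroxidase gene, ranked 48.8, 72.9, 59.8 and 64.01 in non-hair lists and was also in both whole root lists.

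A list of 77 known genes gave the view from gene function. Of these, 73 start in the windows, and 66 of the 73 have a pericentromeric site within 1 kb of the start, 110 sites in all. All 11 lists held 30 of the 110, 18 were seed coat-only, 1 was root-only, 1 hair-only and 1 non-hair-only. The lists are read beside the shares over all sites, 6.01% seed coat-only and 6.15% root-only, and no test was run on them. Of all pericentromeric sites, 18.0% were in all 11 lists. The genes were chosen with earlier results of these data known, so these counts cannot measure enrichment.

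Among 22 development regulators, 19 had a site, and 9 of their 33 sites were seed coat-only. TT8, TT2 and TT1 are transcription factors that switch on proanthocyanidin pigment synthesis in the seed coat, and every site of theirs was confined to seed coat lists. TT8, a bHLH factor, had 3 seed coat-only sites. The one 705.5 bp upstream ranked 17.5, 40.4 and 77.8 in 4 DPA replicate 1, the 4 DPA pool and the 7 DPA pool. The one at the start ranked 14.6, 46.2 and 73.2 in the same order, and the one in an intron 6.72, 22.5 and 12.7. TT2, a MYB factor, had 1 site at its promoter with ranks of 25.6, 23.8 and 69.1. The highest rank at TT2 and at the first 2 of these TT8 sites was in the 7 DPA pool, and that of the intron site in the 4 DPA pool. At TT1, a zinc finger factor, it was in a 4 DPA list, with ranks of 60.9, 67.7 and 37.8. STK had 1 more seed coat-only site within 1 kb, with ranks of 71.6, 71.3 and 69.99. SEP4, a floral MADS-box factor, had 1 seed coat-only site, and PDF2, an epidermal homeodomain factor, had 2. KNAT1, the homeobox gene BREVIPEDICELLUS, carried the only root-only site, in its 5′ UTR, with ranks of 32.6 and 44.6 in hair cells, 29.1, 40.9, 39.8 and 19.9 in non-hair cells and 47.6 and 58.7 in whole root.

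Other regulators had sites whose rank differed widely between lists. GTL1, a trihelix factor that limits root hair and trichome growth, had a promoter site ranked 99.7, 98.3 and 97.6 in seed coat, and 21.3 to 81.6 in the root lists. WRKY42 had a promoter site ranked 10.3 in the 7 DPA pool alone among seed coat lists, and 89.3 to 98.6 in the 8 root lists. ORE1, a NAC factor of leaf senescence, ranked 11.5 and 12.8 in the 4 DPA lists and 88.2 in the 7 DPA pool, and 66.1 to 94.9 in root lists. MYC2, a jasmonate-response factor, ranked 98.3, 93.6 and 94.5 in seed coat and 70.6 to 99.0 in root lists at its 5′ UTR site. RSL3, a factor of root hair growth, had a site in 0 seed coat lists and in 7 of 8 root lists, at ranks of 2.49 to 19.8, among them both hair lists and the 4 non-hair lists.

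Of 10 light and photosynthesis genes 8 had a site, 13 sites in all, with 1 in all 11 lists and 3 seed coat-only. These 13 sites are too few to set apart from the 18.0% of all pericentromeric sites that were in all 11 lists. The seed coat-only sites were at LHCB2.1, an antenna protein of photosystem II, with ranks of 39.4, 18.5 and 55.4, at RBCS3B, a small subunit of Rubisco, with 52.1, 8.05 and 39.7, and in an intron of PHOT1, a blue light receptor, with 43.6, 45.1 and 49.9. The blue light receptor gene CRY1 had the 1 site in all lists, with ranks of 76.6, 73.1 and 65.4 in seed coat and 40.7 to 83.1 in root lists. NPQ4, the PsbS protein of photoprotection, had a site ranked 81.4, 80.7 and 78.5 in seed coat, and 10.9, 38.9 and 1.48 in 3 of the 8 root lists. The promoter of PHYC, a red light receptor, was the non-hair-only site of the lists. It ranked 8.77, 4.76, 31.7 and 33.4 in non-hair cells and 39.4, 25.0 and 39.7 in seed coat, and was in no hair or whole root list.

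Defence and stress genes had 14 of 15 members with a site, 8 of 25 sites in all 11 lists and 4 seed coat-only. The kinases MPK3 and MEKK1 of immune signalling had sites in every list, MPK3 with ranks of 76.0, 59.5 and 70.8 in seed coat and 73.1 to 98.2 in root. LOX2, a lipoxygenase of jasmonate synthesis, had 2 seed coat-only sites, with ranks of 86.7, 78.1 and 48.4 at the higher. The other 2 seed coat-only sites were at NIT1, a nitrilase, and PAO, an enzyme of chlorophyll breakdown. PR1, the salicylic acid marker gene, had 1 site, in 3 root lists at ranks of 17.0 to 27.6. RCD1, a regulator of oxidative stress responses, had the hair-only site, with ranks of 37.6 and 48.9 in hair cells and 35.3 and 54.6 in whole root, next to sites found in 10 and 11 lists.

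Chromatin and RNA factors had sites at 8 of 9 genes, 13 in all, with the lowest median rank of the 6 lists, 13.1, and 0 seed coat-only sites. With 13 sites, a count of 0 is not set apart from the 6.01% over all sites. DAYSLEEPER, a gene derived from a transposase, had 2 of the 3 sites found in all lists, with ranks of 87.7, 84.0 and 85.6 in seed coat and 48.8 to 98.7 in root at its promoter. Hormone and transport genes had sites at 9 of 9 genes, with a median rank of 19.6. NHX1, a vacuolar sodium/proton exchanger, led with ranks of 81.9, 83.7 and 86.7 in seed coat and 78.7 to 88.5 in root. Widely used genes had sites at 8 of 8, with a median rank of 53.2. Ubiquitin gene UBQ10 had 2 sites. That at its promoter ranked 67.8 and 82.7 in 2 of the 3 seed coat lists and 93.5 and 88.8 in hair cells. It ranked 88.2, 84.5 and 93.3 in 3 of 4 non-hair lists and 99.8 and 99.4 in whole root. The site in its 5′ UTR ranked 77.8 in seed coat 4 DPA replicate 1 and 84.8 in the 7 DPA pool. In the 8 root lists the 5′ UTR site ranked 76.0 to 98.6. The whole root line carries the UBQ10 promoter in its transgene as well, and reads of the native and the added copy cannot be told apart. Within the windows, 7 genes of the lists had no site within 1 kb: GAPB, RBCS1B, GL1, SCZ, WRKY74, PRB1 and ABH1.

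The sites nearest to the largest run of unknown bases, or to the middle of the window, varied widely in rank. They were 5 on each chromosome, and 13 of the 25 had a mean rank above the arm-site median of 38.9. On chromosome 4 all 5 lay above it, with mean ranks of 42.6 to 99.9, and 2 were in all 11 lists. On chromosome 1, 4 of the 5 lay above it, and 2 were in all 11 lists. The higher of these, at chr1:15083281-15083470 in AT1G40104, ranked 99.3, 95.2 and 99.8 in seed coat and 93.5 to 99.95 in root. All 5 sites on chromosome 4 and all 5 on chromosome 1 lie in the 178-bp repeat, as do some on chromosome 2. The number of copies behind the scores of these repeat sites is unknown. On chromosome 3, 1 of the 5 lay above the arm median, and they were 205596 bp to 242816 bp from any protein-coding start. The seed coat 7 DPA pool held these 5, at ranks of 4.16 to 57.99, and 3 of them were in no other list.

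The 3 seed coat lists marked 6.65M lacked the middle of every window. They held no peak at all in 1 stretch per chromosome, 2.201, 3.07, 3.02, 3.37 and 2.42 Mb long on chromosomes 1 to 5, while their longest gap elsewhere was 0.401 Mb. Each of the 11 lists marked 6.8M had 364 to 559 peaks there, and the 3 seed coat lists at 6.8M, from the same samples, had 478, 431 and 559. Of pericentromeric sites in all 3 seed coat lists at 6.8M, 283 lay inside the stretches and so, by definition, had no peak at 6.65M. Of such sites outside the stretches, 0 of 1399 pericentromeric and 0 of 19517 arm sites lacked a 6.65M peak. The repeat sites all lie inside the stretches, so no 6.65M list had a peak in the 178-bp repeat. The lists do not say what was done differently, and this was not tested.

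The blank stretches hold the repeats and a minority of pericentromeric sites. Inside them lay 131 of the 137 repeated sites. They held 792 sites (17.9%), at 57.7 per Mb, and outside lay 3621, at 212.8 per Mb. Every 31-base word was single-copy in 64.4% of the sites inside and 90.4% of those outside. With the 6.65M lists in place of the 6.8M ones, seed coat had 7.00%, 6.79% and 7.03% of peaks in the windows, and the difference from root was -1.31 points (exact two-sided permutation test, p = 0.00606, the smallest possible). With the stretches left out of every list it was 0.0572 points (same exact permutation test, p = 0.770). The full-depth lists do have peaks in the stretches, 525 and 301 in seed coat, and their shares in the windows were 8.66% and 6.82% in seed coat, against 8.84%, 9.60% and 8.76% in hair, non-hair and whole root. That difference was -1.33 points (exact two-sided permutation test, p = 0.100, the smallest that these 5 lists allow). The full-depth lists are not set to a common number of reads, and the part of depth in this difference was not tested.

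The flower lists are at full depth, 1 list each, and were not tested against the others. In open flowers 8.78% of 11748 peaks were pericentromeric, at 33.5 per Mb in the windows and 121.1 per Mb in the arms. In unopened flowers 7.08% of 13098 were, at 30.1 and 137.7 per Mb. The median rank in open flowers was 57.6 in the windows and 49.9 in the arms, the reverse of the order in the 11 lists, and in unopened flowers both were 49.2. Of their 10 highest-scoring peaks, 9 in open and 8 in unopened flowers were pericentromeric. Flower peaks touched 70.3% (open) and 62.0% (unopened) of pericentromeric sites found in all 11 lists, 16.4% and 18.5% of seed coat-only sites, and 2.42% and 1.04% of root-only sites. In the arms the same shares were 64.3% and 64.5%, 14.4% and 24.6%, and 2.43% and 2.69%.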

How the data were processed

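Per the labels' protocols, nuclei were captured by biotin, treated with DNase I, and small double-cut fragments were sequenced. The submitters' processing notes name Bowtie 0.12.7 and TAIR10. For the peak caller, its threshold and the treatment of reads with several matches, the entry is: not given in the sources used here. The authors deposited 22 peak lists: 11 marked 6.8M, 3 marked 6.65M and 8 without a mark. Their score column holds the score that the authors gave each peak. The -log10 p column of the 8 unmarked lists is the authors' and was not used. Depth per peak is unknown, so no interval for counting error is given.

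Peaks were merged into sites with a gap of 0 bp, and a list holds a site when its peak overlaps it by 1 bp or more. Rank percentiles were computed within a list. Single-copy sequence was measured as 31-base words of the TAIR10.1 RefSeq genome, whose annotation gave genes. Lists were compared by exact sign-flip or label permutation tests and sites by Fisher's exact test with Benjamini-Hochberg adjustment (Python 3.11.15, NumPy 2.4.6, pandas 2.3.3, SciPy 1.17.1). The code was tested on simulated lists. Named sites are the 10 of all lists, 8 seed coat-only, 8 root-only and 5 hair-only or non-hair-only with the highest mean rank, the 5 of all lists farthest from a start, the 5 nearest the middle of each window, the top 10 peaks of each list, and genes of 6 lists by role with a site within 1 kb. The pericentromeric windows and the gene lists were chosen with earlier results of these data known. The repeat sites, the single-copy leaders, the blank stretches and the hair against non-hair share were defined after the values were seen.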

Additional observations from a re-analysis of the deposited data

Results flagged for a closer look

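Non-hair replicate 1 had 109 peaks in the 178-bp repeat, while the other non-hair lists had 89, 89 and 91. The gap from 109 to the next list was 0.9 of the whole range of the 4 lists. Of 9 measures checked in the non-hair lists this was the only one to stand apart in that way. For a single measure chance does so in about 1 in 20 groups, and with 9 measures checked more often. The same list had the lowest pericentromeric share of the non-hair lists, 7.72%, and the highest median rank of repeat peaks, 89.1. Why it stands apart was not tested.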

How the results depend on the processing

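The lower density, lower rank and lower sharing of pericentromeric sites kept their direction under every alternative run. Leaving out 1 list at a time gave -1.97 to -1.95 for density, -11.4 to -10.8 for rank and -4.73 to -3.45 for sharing, each with p = 0.00195 (exact). Over all alternatives density per Mb ranged from -2.79 to -1.39, rank from -12.4 to -4.47 and sharing from -6.76 to -3.38. With protein-coding starts in place of Mb as the base, density was -0.605. With the 5 distinct full-depth lists of seed coat and root, density was -1.91 and rank -10.9, with p = 0.0625 in an exact test, the smallest that 5 lists allow.

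The seed coat minus root share was -0.205 to 0.0992 without 1 list. It was 0.0943 with windows shortened by 1 Mb at either end, 0.118 with the left-out stretch of chromosome 2 kept, -1.31 with the 6.65M lists (p = 0.00606, exact) and 0.0572 with those lists and the blank stretches left out. It was -1.33 with full-depth lists (p = 0.100, exact, the smallest possible), -0.371 with equal numbers of peaks per list and -0.351 with the upper 50% of each list. Hair minus non-hair stayed between 0.441 and 0.668.

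The site test called 576 pericentromeric sites. It called 0 to 0 without any 1 list, 0 without pooled lists, 0 when peaks had to cover 50% of a site, 302 with the upper 50% of each list and 213 with shortened windows. Seed coat-only sites numbered 132 with the upper 50% of each list, 119 with shortened windows, 653 without pooled lists and 288 to 437 without 1 list. Root-only sites numbered 170 with the upper 50%, 94 with shortened windows and 290 to 336 without 1 list.

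No paired analysis was possible because the labels number no replicates across groups, and the numbers used here follow accession order. The unknown depth, the unknown handling of repeated reads and the pooled lists limit all values.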
